A study of Mus musculus with 16 samples.

Results

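Imprinted growth genes are the 10 genes H19, Igf2, Igf2r, Cdkn1c, Dlk1, Meg3, Peg3, Mest, Grb10 and Plagl1, which were followed here through 16 RNA-seq libraries of mouse intestinal organoids. All 10 symbols matched a single Ensembl identifier among the 46078 genes of the deposited count tables. The genes were chosen on their level in CPM (read counts scaled to library size) in these same libraries, above all in untreated Apc mutant against untreated wild type organoids and between labels in conditioned medium, so their differences in those comparisons are given as a description without p-values. In mammals an imprinted gene is transcribed mainly from the copy inherited from 1 parent, a state kept by DNA methylation at imprinting control regions. Many imprinted genes act on the insulin-like growth factor (IGF) pathway or on the cell cycle, with paternally expressed members tending to promote fetal growth and maternally expressed members tending to restrain it. Some are silenced in most tissues after birth and stay on in stem cells and endocrine cells of adult tissues. Which parental copy was read was not measured here.

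Organoids are crypt cells of the gut epithelium grown as closed structures in a gel. Mutant organoids were of the genotype Lgr5-EGFP-IRES-CreERT2;Apcfl/fl, in which tamoxifen-activated Cre removes the floxed part of the tumour suppressor Apc, and carried the green fluorescent Venus construct LeGO-V2. Wild type organoids were Lgr5-EGFP-IRES-CreERT2 and carried the red mCherry construct LeGO-C2. All were on a C57BL6 background and in medium with EGF, R-spondin and Noggin, and the CreERT2 allele, which is expressed from the stem cell gene Lgr5, was shared by all groups. The protocol also names Villin-CreERT2.Apcfl/fl mice without saying which libraries came from them, and the labels do not give the age of the mice, whether a line was a clone, or whether replicates were separate cultures, so p-values measure only the spread between these libraries. The groups were untreated Apc mutant (2 libraries, day 2), untreated wild type (2, day 2), APCCM on days 2 and 4 and WTCM on days 2 and 4 (3 libraries each), where the genotype label is Apc mutant for APCCM and WT for WTCM, and the treatment label is Apc mutant conditioned medium for all 12. Conditioned medium (CM) is medium in which other organoids had grown.

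Some features of the libraries bear on every value below. Gene counts came to 8325979 to 13027701 per untreated library and 17986815 to 29152692 per CM library, so that 3 counts correspond to 0.184 to 0.327 CPM and 0.111 to 0.174 CPM. RNAs without a poly(A) tail made up 0.0206 to 0.0291% of gene counts in untreated libraries and 8.76 to 12.8% in CM libraries, so no fold or test was taken between CM and untreated libraries, and levels of the 6 groups set side by side carry this difference. Apc itself, with all exons counted together, stood at 217 to 249 CPM in untreated mutant and 69.3 to 76.2 CPM in untreated wild type libraries. In CM, Apc stood at 252 to 278 CPM in APCCM and 246 to 260 CPM in WTCM on day 2. On day 4 it stood at 266 to 281 CPM in APCCM and 237 to 269 CPM in WTCM. A count over all exons does not check the deletion. All 6 Wnt target genes of a checking list rose in the untreated mutant libraries, as in Axin2 at 724 against 165 CPM. In CM, 4 of the same 6 fell in the libraries labelled Apc mutant on each day, with Axin2 at 269 against 346 CPM on day 2. The names APCCM and WTCM are therefore used for what the libraries are called, without a claim on their genotype. Replicate 1 of WTCM on day 4 stood apart from the other replicates of its group (chi-square per degree of freedom 39.9 and 42.2, against 3.30 to 6.08 for all other pairs), and calls of day 4 that were lost without it are named with the value without it. Epithelial markers were present in every group, at a summed 3615 to 7603 CPM.

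The members lie in 7 places of the genome (build GRCm38). H19 (ENSMUSG00000000031, a long noncoding RNA) occupies chromosome 7, 142575529 to 142578143, and Igf2 (ENSMUSG00000048583) lies 72.6 kb from it at 142650766 to 142666816, both on the minus strand. Cdkn1c (ENSMUSG00000037664) follows on the same chromosome at 143458339 to 143461050, and Peg3 (ENSMUSG00000002265) lies at its far end at 6703892 to 6730431. Dlk1 (ENSMUSG00000040856) and the noncoding RNA Meg3 (ENSMUSG00000021268) lie 77.7 kb apart on chromosome 12, at 109452823 to 109463336 and 109541001 to 109571726. Igf2r (ENSMUSG00000023830) is on chromosome 17 at 12682406 to 12769664, Mest (ENSMUSG00000051855) on chromosome 6 at 30723547 to 30748465, Grb10 (ENSMUSG00000020176) on chromosome 11 at 11930508 to 12038683 and Plagl1 (ENSMUSG00000019817) on chromosome 10 at 13060504 to 13131694. Exons of Igf2 overlap the antisense gene Igf2os, and exons of Mest overlap Copg2 on the other strand, so their reads could not be told apart without a strand setting.

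The members whose levels differed most in the untreated pair carry the sequences below. H19 is the host of miR-675, whose 2 mature arms, from RefSeq (GRCm38.p6, minus strand), are shown because H19 was found in the untreated mutant libraries almost alone. Capitals mark the seed (bases 2 to 8) and the 2 seeds differ. The count tables gave the Mir675 gene 0 counts in all 16 libraries, and these libraries were not made to capture mature microRNAs.
miR-675-5p (chr7:142577112-142577133): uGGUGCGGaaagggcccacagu
miR-675-3p (chr7:142577078-142577099): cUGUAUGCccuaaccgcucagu

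Promoters from the same RefSeq table (300 bases, from 250 before to 50 after the start) matched 8 of the 10 members. H19 and Cdkn1c, both higher in untreated mutant libraries, had none there and were not searched for the motif below. Those of Igf2r and Plagl1, which had the widest fitted folds in untreated mutant organoids among members with more than 3 counts in both groups, and of Peg3, which was lower, are shown with CG dinucleotides in capitals, since methylation of such sites marks imprinted promoters. They held 34, 26 and 13 CG dinucleotides in the order Igf2r, Plagl1 and Peg3, against a median of 7 over 32851 promoters of the same length, and their GC content was 70.7, 70.7 and 61.3% against a median of 52.7%. The TCF/LEF motif CTTTGAT, which mediates Wnt signalling and was searched on both strands, was in 0 of the 15 promoters of the 8 members and in 3.73% of all promoters, which says only that these letters are not in these windows.
Igf2r promoter (chr17:12769657-12769956, minus strand): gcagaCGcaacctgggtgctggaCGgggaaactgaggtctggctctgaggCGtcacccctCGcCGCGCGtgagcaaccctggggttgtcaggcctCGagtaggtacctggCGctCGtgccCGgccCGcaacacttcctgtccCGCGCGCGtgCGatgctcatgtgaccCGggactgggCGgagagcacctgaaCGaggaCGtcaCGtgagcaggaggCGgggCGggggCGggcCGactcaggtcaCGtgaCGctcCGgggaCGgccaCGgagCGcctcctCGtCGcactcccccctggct
Plagl1 promoter (chr10:13090582-13090881, plus strand): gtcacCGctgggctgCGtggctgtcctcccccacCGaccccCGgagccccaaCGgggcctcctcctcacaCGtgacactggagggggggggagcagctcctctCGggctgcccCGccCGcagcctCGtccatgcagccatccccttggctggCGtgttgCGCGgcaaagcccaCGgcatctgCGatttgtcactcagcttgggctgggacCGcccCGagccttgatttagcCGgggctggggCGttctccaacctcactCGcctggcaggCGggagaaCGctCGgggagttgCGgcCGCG
Peg3 promoter (chr7:6730370-6730669, minus strand): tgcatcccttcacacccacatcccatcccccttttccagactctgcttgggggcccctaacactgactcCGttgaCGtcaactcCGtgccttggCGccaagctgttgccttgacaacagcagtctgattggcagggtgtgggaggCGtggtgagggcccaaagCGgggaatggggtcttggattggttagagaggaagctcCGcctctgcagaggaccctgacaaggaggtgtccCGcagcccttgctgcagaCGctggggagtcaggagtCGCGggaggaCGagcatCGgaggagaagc

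Without conditioned medium, the mutant organoids had more RNA of the maternally expressed members H19, Igf2r and Cdkn1c and of the paternally expressed Plagl1, and less of Peg3, than wild type organoids. Libraries of the pair did not overlap for 9 of the 10 members, 4 higher and 5 lower. Of all 16510 genes tested, 39.3% were higher and 36.4% lower without overlap. The lower members Igf2, Dlk1 and Meg3 did not pass the filter on low counts that those genes passed, so the shares do not cover genes like them. Of the 6 members that passed the filter on low counts, edgeR's quasi-likelihood test across all genes (adjusted p under 0.05) called 4 higher and 1 lower, beside 62.5% of all genes called, 32.4% higher and 30.1% lower. This count is given for orientation only, since the members were chosen on this pair and H19 and Peg3 passed the filter through the group where they were high. In bulk RNA, fewer cells of a type and less RNA per cell cannot be told apart.

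The IGF axis was led by Igf2r, the cation-independent mannose-6-phosphate receptor, which carries enzymes to lysosomes and removes IGF2 from the cell surface. Igf2r stood at 638 and 639 CPM in untreated mutant libraries, against 140 and 150 CPM in untreated wild type libraries. Both mutant libraries lay far above both wild type libraries, and each pair was tight. The fitted difference was 4.41-fold (log2 2.14, SE 0.07). Its ligand Igf2, the main fetal growth factor of the family, was close to absent, with 2 counts over the 2 untreated mutant libraries and 4 over the 2 wild type libraries, which is too few to tell the groups apart (ratio 0.348, exact 95% interval 0.0315 to 2.43, counting error only). Airn, the noncoding RNA that runs antisense across the Igf2r promoter and silences the paternal copy in the mouse, was counted at 15.3 and 14.6 CPM in untreated mutant libraries, against 5.64 and 4.15 CPM in wild type libraries. Airn was therefore higher too, by 3.00-fold (log2 1.59, SE 0.19, adjusted p = 1.2e-07, edgeR quasi-likelihood), and its exons do not overlap those of Igf2r, although its unspliced RNA would cover part of that gene. Grb10, an adaptor that binds the activated insulin and IGF1 receptors and restrains their signal, stood at 0.208 and 0.489 CPM in mutant libraries, against 1.39 and 0.546 CPM in wild type libraries. The fitted difference of Grb10 was -1.49 on the log2 scale with a wide error (SE 0.71), and it rests on 11 counts in mutant and 22 in wild type libraries, so that leaving out 1 library moved it between -2.24 and -0.61.

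H19, the noncoding RNA expressed from the maternal copy opposite to Igf2, was found in the untreated mutant libraries almost alone. H19 had 94 and 138 counts (6.52 and 8.44 CPM) in the untreated mutant libraries and 0 and 1 count in the wild type libraries. The ratio of pooled levels was 161 (exact 95% interval 28.7 to 6399, counting error only). None of the 12 CM libraries had a count of H19, which allows a level of up to 0.0442 to 0.0531 CPM over the 3 libraries of a group. H19 and Igf2 are neighbours under a shared control region in the mouse, and the H19 signal of the mutant libraries came without a matching level of Igf2.

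Cdkn1c and Plagl1 were higher in untreated mutant organoids as well. Cdkn1c, a cyclin-dependent kinase inhibitor found in quiescent cells, stood at 13.9 and 13.8 CPM in untreated mutant libraries, against 5.15 and 3.06 CPM in wild type libraries. The mutant libraries nearly coincided, the wild type libraries differed from each other, and the fitted difference was 3.29-fold (log2 1.72, SE 0.19). Plagl1, a zinc finger transcription factor that has Cdkn1c and other imprinted genes among its targets in the mouse, stood at 37.4 and 35.3 CPM in mutant libraries, against 4.33 and 3.82 CPM in wild type libraries. The fitted difference of Plagl1 was 8.84-fold (log2 3.14, SE 0.19), the widest of the 4 members with more than 3 counts in both groups.

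Peg3, Dlk1 and Meg3 were found mainly in wild type libraries, at low levels, and Mest had few counts in either group. Peg3, a large paternally expressed zinc finger protein, had 0 and 1 count in the untreated mutant libraries and 22 and 33 counts (1.80 and 3.60 CPM) in the wild type libraries. The ratio of the mutant to the wild type level of Peg3 was 0.0126 (exact 95% interval 0.000314 to 0.0734, counting error only). Dlk1, a Notch-related membrane protein of fetal and endocrine tissue, had 0 counts in the mutant libraries and 4 and 3 counts in the wild type libraries. Its neighbour Meg3 had 0 counts in mutant and 4 and 1 count in wild type libraries, so most of its counts came from a single library. Counts of this size are too few for a fold. Mest, a paternally expressed hydrolase-like protein, had 0 and 4 counts in mutant and 1 and 0 counts in wild type libraries, and these overlapped. Dlk1, Meg3, Mest and Igf2 did not pass the filter on low counts and held 108 counts between them over all 16 libraries.

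**Figure D1:**
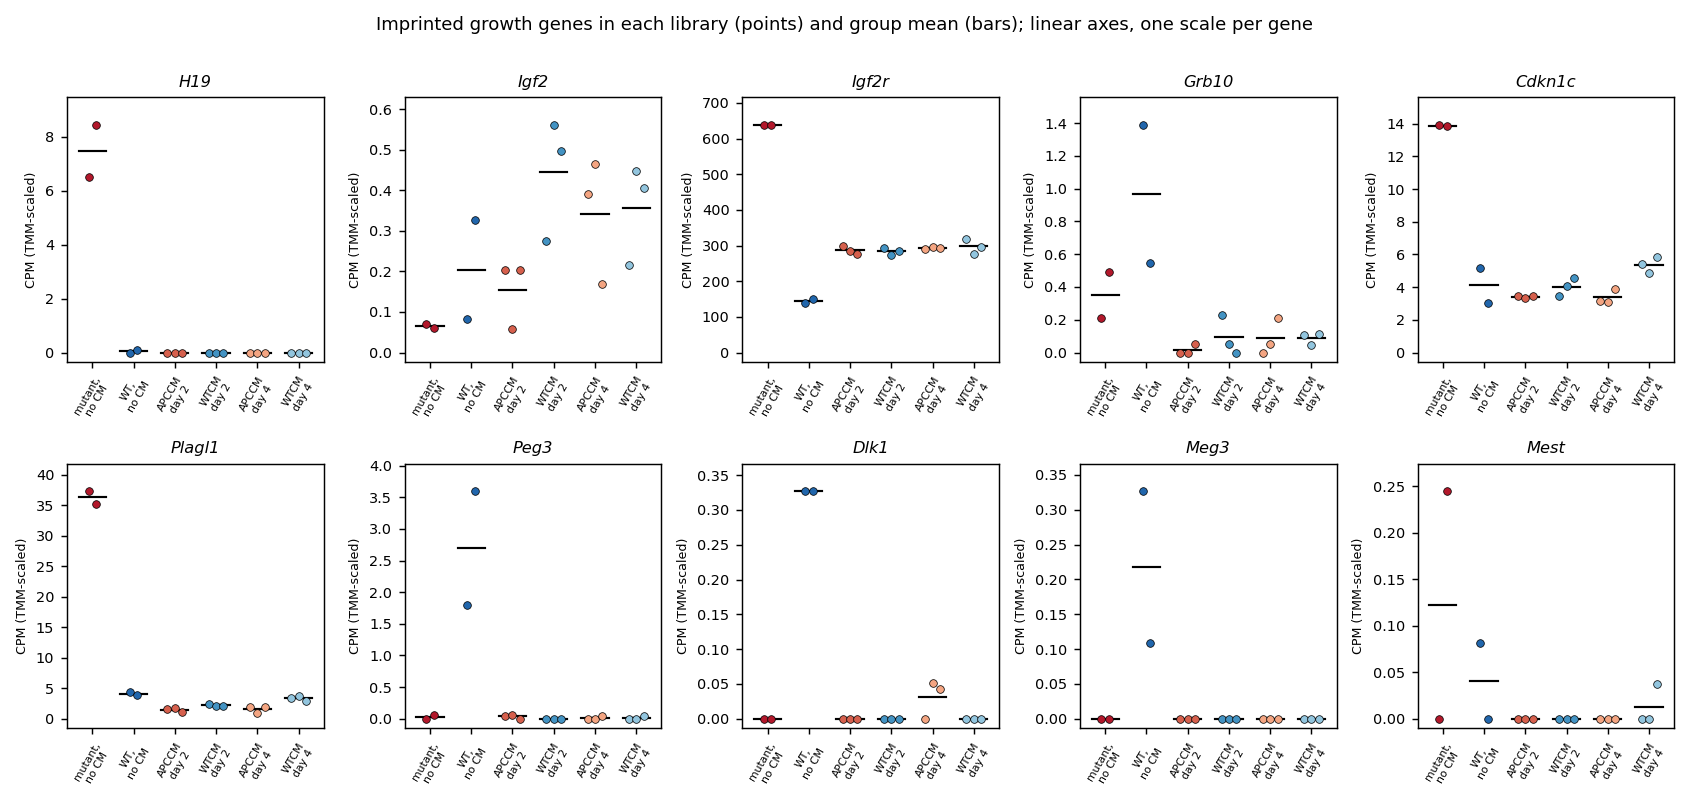
Level of each member (CPM on effective library sizes) in every library, with 1 point per library and a bar at the group mean. The y axes are linear and differ between genes. Igf2r, Cdkn1c, Plagl1 and H19 stand higher in the 2 untreated mutant than in the 2 untreated wild type libraries, and Peg3 stands lower. Within CM, Cdkn1c and Plagl1 stand lower in APCCM than in WTCM on each day.

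Summed stromal, enteroendocrine, and endothelial and neural markers differed between the untreated groups, while summed immune markers overlapped. The summed level of 11 fibroblast and stromal markers was 271 to 287 CPM in untreated mutant libraries and 5.57 to 6.38 CPM in wild type libraries, nearly all of it from Vim (278 against 5.17 CPM), while Col1a2, Col3a1, Dcn, Lum, Thy1 and Fbn1 had 0 counts in both groups. The 8 enteroendocrine markers summed to 40.4 to 41.9 CPM in mutant and 439 to 445 CPM in wild type libraries, with Gip and Cck at 0 counts in the mutant. Of these 8, 5 were called lower in the mutant, Isl1 was called higher (log2 4.13), and Neurog3 and Pax4 were not called. The 10 endothelial and neural markers summed to 7.14 to 7.40 CPM in mutant and 3.71 to 4.17 CPM in wild type libraries, with Cdh5 and Sox10 at 0 counts in both, and the 8 immune markers to 5.96 to 7.89 CPM and 6.54 to 6.66 CPM. Epithelial markers summed to 3615 to 3947 CPM in mutant and 6013 to 6576 CPM in wild type libraries. The part of these cell types in the levels of Peg3, Dlk1, Meg3 and the other members was not tested.

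In conditioned medium only 3 members reached 1 CPM in any group, namely Igf2r, Cdkn1c and Plagl1. On day 2, libraries of APCCM and WTCM did not overlap for 3 of the 10 members, all lower in APCCM. Of all genes tested, 16.7% were higher and 17.8% lower without overlap. Igf2 was among the 3 and did not pass the filter that those genes passed. On day 4 the libraries did not overlap for 2 members, both lower, beside 17.2% higher and 17.7% lower over all genes tested. None of the 6 members tested was called on day 2, beside 16.7% of all genes called (8.54% higher, 8.15% lower), and 2 were called lower on day 4, beside 15.6% (7.83% higher, 7.80% lower). These counts too are descriptions, since the genes were chosen on the same groups. The summed enteroendocrine markers moved with the label, at 787 to 897 CPM in APCCM and 493 to 515 CPM in WTCM on day 2, and at 1038 to 1130 CPM in APCCM and 729 to 859 CPM in WTCM on day 4, and their part in the levels of the members was not tested. On each day 4 of the 8 were called higher in APCCM and 2 lower, with Neurog3 at -0.78 and -0.47 on days 2 and 4 (log2) and Pax4 at -0.62 on day 2. Fibroblast and stromal markers summed to 4.19 to 8.57 CPM in all CM libraries.

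Igf2r was nearly level across CM. It stood at 299, 285 and 277 CPM in APCCM and 292, 275 and 284 CPM in WTCM on day 2. On day 4 it stood at 289, 297 and 292 CPM in APCCM and 319, 277 and 297 CPM in WTCM. The libraries of the labels overlapped on both days, and the fitted differences of Igf2r were 0.02 (SE 0.05) on day 2 and -0.02 (SE 0.05) on day 4 on the log2 scale, or 0.03 without replicate 1 of WTCM on day 4. Airn stood at 8.40 ± 1.68 CPM in APCCM and 7.50 ± 0.90 CPM in WTCM on day 2 (SD, n = 3 each) and did not pass the test on either day (adjusted p = 0.45 on both days, edgeR quasi-likelihood).

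Cdkn1c was somewhat lower in APCCM. On day 2 it stood at 3.43, 3.36 and 3.45 CPM in APCCM and 3.45, 4.09 and 4.53 CPM in WTCM, with the highest APCCM library just under the lowest WTCM library. On day 4 it stood at 3.18, 3.10 and 3.88 CPM in APCCM and 5.42, 4.83 and 5.84 CPM in WTCM, where the groups lay clearly apart. The fitted differences of Cdkn1c were -0.23 (SE 0.17) on day 2 and -0.66 (SE 0.15) on day 4, or -0.65 without replicate 1 of WTCM on day 4.

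Plagl1 was lower in APCCM as well. On day 2 it stood at 1.54, 1.74 and 1.17 CPM in APCCM and 2.44, 2.15 and 2.04 CPM in WTCM. On day 4 it stood at 1.96, 0.878 and 1.86 CPM in APCCM and 3.36, 3.72 and 2.92 CPM in WTCM. Every APCCM library lay under every WTCM library of its day, and the fitted differences of Plagl1 were -0.59 (SE 0.23) on day 2 and -1.06 (SE 0.20) on day 4, or -1.05 without replicate 1 of WTCM on day 4. Both genes were thus higher in mutant than in wild type libraries without CM and lower in APCCM than in WTCM libraries.

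The remaining 7 members were close to the limit of detection in CM. Igf2 had 4, 1 and 4 counts in APCCM and 6, 11 and 10 counts in WTCM on day 2, a ratio of 0.362 (exact 95% interval 0.150 to 0.793, counting error only). Its upper limit reached 1.05 without replicate 2 of APCCM and 1.00 without replicate 2 of WTCM. On day 4 the counts of Igf2 overlapped, at 8, 9 and 4 in APCCM and 4, 10 and 11 in WTCM, a ratio of 0.897 (0.478 to 1.67), or 0.778 without replicate 1 of WTCM. The gene Igf2os, whose exons overlap those of Igf2, had 4 counts in APCCM and 2 in WTCM on day 2. Grb10 had 1 count in APCCM and 6 in WTCM on day 2, and 6 in each on day 4. Peg3, Dlk1 and Mest had at most 2 counts in any CM group, and H19 and Meg3 had 0 in all 12 CM libraries.

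Per kilobase of exon, which allows levels of different genes to be set side by side, Igf2r led in every group. In untreated mutant libraries the mean levels per kilobase were 68.6 CPM for Igf2r, 6.81 for Cdkn1c, 4.65 for Plagl1 and 3.04 for H19. In untreated wild type libraries they were 15.6 for Igf2r, 2.01 for Cdkn1c, 0.521 for Plagl1 and 0.203 for Peg3. In the CM groups Igf2r ranged from 30.5 to 32.0, Cdkn1c from 1.66 to 2.63 and Plagl1 from 0.189 to 0.426 CPM per kilobase. The order Igf2r, Cdkn1c, Plagl1 was thus the same in all 6 groups, and the order of the CM groups was read within each gene. For Cdkn1c the mean level was 3.39 ± 0.43 CPM in APCCM on day 4, 3.41 ± 0.05 in APCCM on day 2, 4.02 ± 0.54 in WTCM on day 2 and 5.37 ± 0.50 in WTCM on day 4 (SD, n = 3 each), where the first pair of neighbours lay within their spread. For Plagl1 it was 1.48 ± 0.29, 1.56 ± 0.60, 2.21 ± 0.21 and 3.33 ± 0.40 CPM in APCCM on day 2, APCCM on day 4, WTCM on day 2 and WTCM on day 4.

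Between culture days the members are described without p-values too, since the levels they were chosen on cover all 6 groups. In WTCM, Cdkn1c was 1.34-fold higher on day 4 than on day 2 (log2 0.42, SE 0.15) and Plagl1 was 1.49-fold higher (log2 0.58, SE 0.19). All 3 libraries of day 4 lay above all 3 of day 2 for both genes, where 21.1% of all genes were higher and 20.2% lower without overlap. edgeR called these 2 of the 6 members tested higher, beside 24.1% of all genes called (12.5% higher, 11.6% lower). The number fell to 0 without replicate 1 of day 4 or replicate 2 of day 2, and to 1 without any other single library of the groups and in DESeq2. Igf2r was at 298 ± 21.3 CPM on day 4 and 284 ± 8.70 CPM on day 2 (SD, n = 3 each), and the libraries overlapped (log2 0.07, SE 0.05). Grb10, at 6 counts on each day, had a log2 difference of -0.13 (SE 1.00).

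In APCCM the members lay close together on both days. Libraries of day 4 and day 2 overlapped for all 10, beside 20.4% of all genes tested higher and 19.3% lower without overlap. Igf2, Dlk1, Meg3 and Mest did not pass the filter that those genes passed, and H19 had 0 counts on both days. The log2 difference was 0.03 for Igf2r (SE 0.05), -0.0032 for Cdkn1c (SE 0.17) and 0.11 for Plagl1 (SE 0.24). None of the 6 members tested was called, beside 23.9% of all genes called (12.2% higher, 11.7% lower). The day effect of APCCM minus that of WTCM was -0.43 for Cdkn1c (SE 0.23), -0.47 for Plagl1 (SE 0.31) and -0.04 for Igf2r (SE 0.07) on the log2 scale, and none of the members tested was called in this interaction of label and day, beside 2.13% of all genes (0.884% higher, 1.24% lower).

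**Figure D2:**
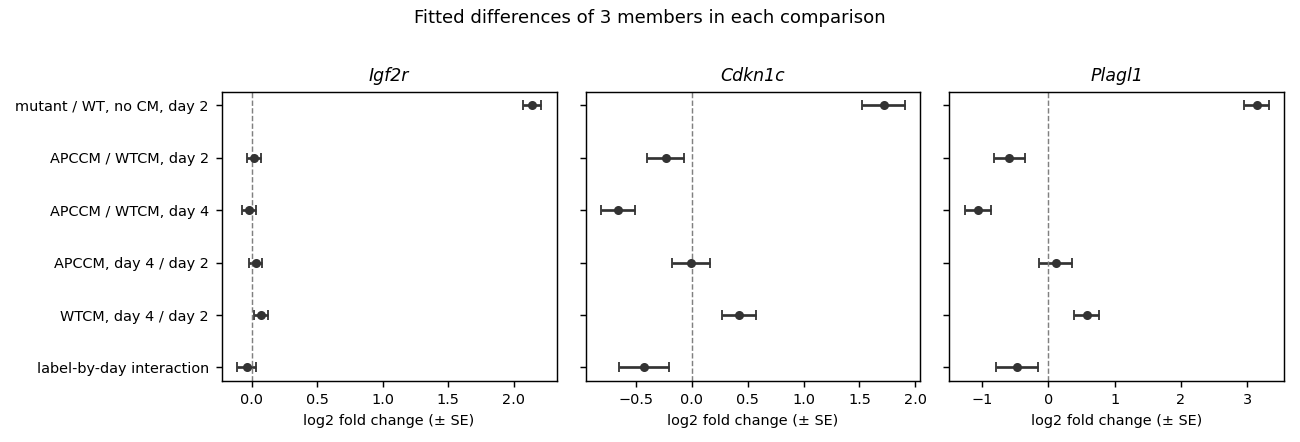
Fitted log2 fold change with its standard error (edgeR, all 16 libraries) for Igf2r, Cdkn1c and Plagl1 in each comparison, with a dashed line at 0. The untreated comparison lies at 1.72 to 3.14, while Cdkn1c and Plagl1 lie under 0 for APCCM over WTCM and Igf2r lies within 0.07 of 0 in every CM comparison.

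Other imprinted genes were described from a list of 66 in the same domains or elsewhere, of which 65 matched the files and 35 passed the filter. Whether each of them is imprinted in gut epithelium was not measured. Between untreated mutant and wild type organoids 21 of the 35 were higher, 8 lower and 6 did not pass the test. The median log2 difference was 0.38 beside 0 over all genes, of which 32.4% were called higher and 30.1% lower. Tspan32, a tetraspanin in the domain of Cdkn1c, had 65 and 73 counts in the mutant libraries and 0 in both wild type libraries. Its level was at least 32.0-fold higher with wild type set at 3 counts, or 13.7-fold without replicate 4 of wild type. Atp10a, a phospholipid-transporting ATPase, stood at 98.4 and 96.9 CPM in mutant libraries, against 0.164 and 0.218 CPM in wild type libraries (4 counts in all). Among genes of the list with more than 3 counts in both groups, Atp10a had the widest fitted fold, a log2 difference of 8.98 (SE 0.28, adjusted p = 2.6e-19). Slc38a4, an amino acid transporter, had 10 and 9 counts in mutant and 0 in wild type libraries, at least 4.40-fold higher, or 1.89-fold without replicate 4 of wild type. Peg13, a noncoding RNA inside Trappc9, stood at 59.7 and 58.2 CPM in mutant libraries, against 8.18 and 8.62 CPM in wild type libraries (log2 2.81, SE 0.14, adjusted p = 6.3e-15). Slc22a3, an organic cation transporter next to Igf2r, had 0 counts in mutant and 10 and 17 counts in wild type libraries, at least 12.9-fold lower, or 6.07-fold without replicate 5 of the mutant. Casd1, a sialic acid acetyltransferase, had 2 and 3 counts in mutant and 64 and 70 counts in wild type libraries (log2 -5.24, SE 0.64, adjusted p = 9.8e-08).

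Neighbours of the members did not all move the same way. The genes of this paragraph were picked for their position after their values were seen. In the domain of Cdkn1c, 5 genes with counts in both groups rose in untreated mutant libraries, namely Osbpl5 (log2 2.79), Ascl2 (2.03), Cd81 (0.94), Tnfrsf23 (0.93) and Kcnq1 (0.59). Phlda2 fell by 1.39, Nap1l4 by 0.37 and Slc22a18 by 0.24. Ascl2 encodes a transcription factor of intestinal stem cells, and Phlda2 restrains placental growth. Around Grb10, Cobl rose (log2 1.01) and Ddc, the decarboxylase of serotonin synthesis in enteroendocrine cells, fell by 2.46. Phactr2 beside Plagl1 rose (log2 2.12), and Copg2 beside Mest rose slightly (log2 0.22, adjusted p = 0.011). Usp29 and Zim1 beside Peg3 had at most 1 count over the untreated libraries, and Rtl1, Rian, Mirg and Dio3 near Dlk1 and Meg3 at most 2.

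**Figure D3:**
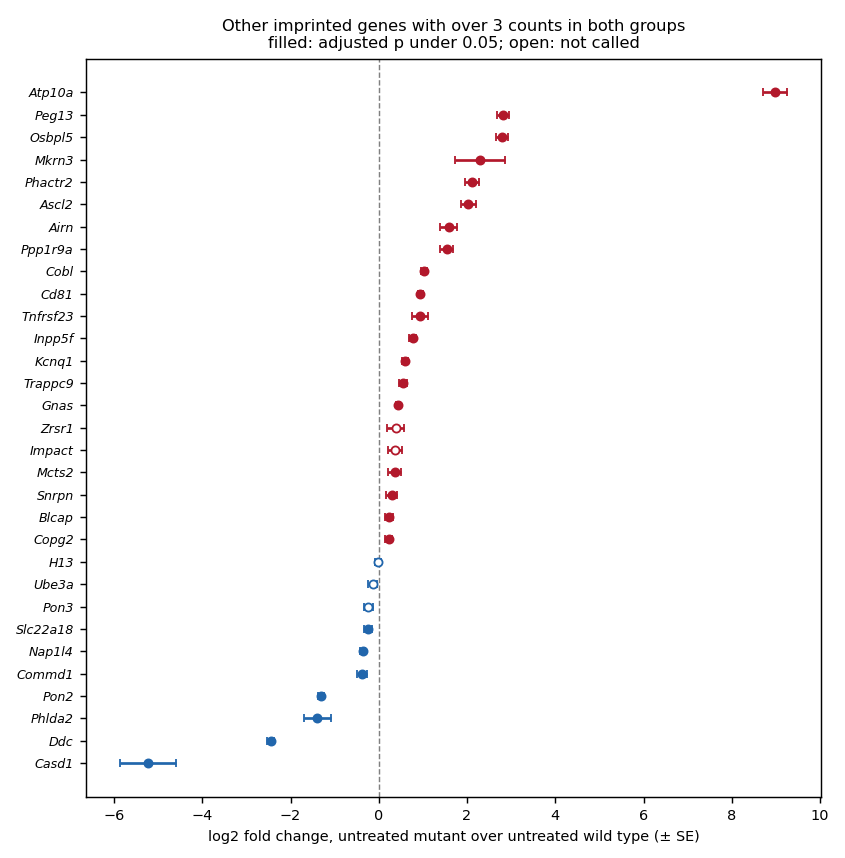
Log2 fold change with its standard error of untreated mutant over untreated wild type for the 31 other imprinted genes with over 3 counts in both groups, sorted by size. Filled points passed the test (adjusted p under 0.05), 19 higher and 7 lower, and open points did not. Most genes lie between -1.5 and 3, with Atp10a at 8.98 and Casd1 at -5.24 apart.

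In CM fewer genes of the same list were called than without CM. Over all genes, 16.7% were called between labels on day 2 and 15.6% on day 4. Between days the shares were 24.1% in WTCM and 23.9% in APCCM, and 2.13% were called in the interaction. On day 2 Impact was higher in APCCM (log2 0.35, adjusted p = 0.047) and Kcnq1 lower (-0.21, adjusted p = 0.0031), and 33 of 35 did not pass the test, with a median of 0.05. On day 4, Phlda2 (0.62) and Ddc (0.38) were higher and Kcnq1 (-0.40), Ascl2 (-0.72), Tnfrsf23 (-0.46) and Tspan32 were lower, with a median of -0.02. Tspan32 had 0 counts in the 3 APCCM and 4, 2 and 2 in the 3 WTCM libraries of day 4. Without replicate 1 of WTCM the calls of Tspan32 (adjusted p = 0.12, edgeR), Phlda2 (log2 0.57, adjusted p = 0.089) and Tnfrsf23 (-0.49, adjusted p = 0.065) were lost, and those of Ddc, Kcnq1 and Ascl2 were kept. Between day 4 and day 2, Osbpl5, Cobl and Tspan32 (not without that library, adjusted p = 0.091) rose and Ube3a fell in WTCM, with Osbpl5 higher by 0.69 on the log2 scale (adjusted p = 8.9e-05). In APCCM, Osbpl5, Cobl, Snrpn, Ddc and Mkrn3 rose and Ascl2, Kcnq1 and Ube3a fell. Atp10a was called lower as well, on 1 count against 14 with overlapping libraries. In the same comparison Mkrn3 stood at 20 counts against 5 (log2 1.76, adjusted p = 0.047) and Ascl2 at 9.40 against 16.3 CPM (log2 -0.79, adjusted p = 0.00014). Ddc was the only gene of the list that passed the interaction test (log2 0.46, SE 0.07, adjusted p = 0.00063).

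Partners of Igf2r and Igf2 in the IGF pathway differed between the untreated groups. Of 27 listed genes, 20 passed the filter, and 11 were higher and 3 lower in untreated mutant organoids, with a median log2 difference of 1.13, beside 32.4% of all genes higher and 30.1% lower. The binding proteins that hold IGFs outside cells led this list. Igfbp2 stood at 68.1 and 93.2 CPM in mutant libraries, against 0.245 and 0.655 CPM in wild type libraries (log2 7.56, SE 0.27, adjusted p = 7e-18). Igfbp1 had 533 and 559 counts in mutant and 1 and 0 counts in wild type libraries, a ratio of 759 (exact 95% interval 136 to 30020, counting error only). Igfbp3 had 808 and 812 counts in mutant and 2 and 1 in wild type libraries (ratio 376, interval 128 to 1823). Igfbp5 had 33 and 45 counts in mutant and 0 in wild type libraries, at least 18.1-fold higher, or 7.74-fold without replicate 4 of wild type. Irs1, the docking protein of the insulin and IGF1 receptors, stood at 25.3 and 25.0 CPM in mutant, against 0.327 and 0.764 CPM in wild type libraries (log2 5.59, SE 0.29, adjusted p = 8.5e-15). Pappa2, a protease that cleaves IGF binding proteins, went the other way, at 0.277 and 0.0612 CPM in mutant and 6.21 and 7.09 CPM in wild type libraries (log2 -5.29, SE 0.58, adjusted p = 1.6e-08). The receptor Igf1r stood at 8.18 and 9.42 CPM in mutant and 5.15 and 6.33 CPM in wild type libraries (log2 0.64, SE 0.16, adjusted p = 0.0011), a smaller difference than that of Igf2r.

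In CM, 4 of the 20 pathway genes were higher and 1 lower in APCCM on day 2 (median 0.22). On day 4, 4 were higher and none lower (median 0.02). Over all genes, 16.7% were called on day 2 and 15.6% on day 4. Pappa2 was higher on both days, at 55.1 ± 8.44 CPM in APCCM and 31.4 ± 1.59 CPM in WTCM on day 2 (log2 0.81, SE 0.11, adjusted p = 1.1e-05) and by 0.84 on the log2 scale on day 4. Igf2bp1, an RNA-binding protein named for Igf2 messenger RNA, had 21 counts in APCCM and 5 in WTCM on day 4 (log2 2.07, SE 0.68, adjusted p = 0.039, or 0.059 without replicate 1 of WTCM). Stc2, a secreted inhibitor of the pappalysin proteases, fell in APCCM on day 2, at 14.6, 15.6 and 16.9 CPM against 28.8, 27.0 and 32.5 CPM in WTCM (log2 -0.91, adjusted p = 1.5e-07). On day 4 Stc2 stood at 22.3, 18.8 and 25.1 CPM in APCCM and at 17.2, 19.7 and 17.8 CPM in WTCM (log2 0.28, adjusted p = 0.044, or 0.15 without replicate 1 of WTCM). The interaction of label and day was 1.18 (SE 0.13, adjusted p = 5.1e-06). Irs2 had an interaction of -0.51 (SE 0.12, adjusted p = 0.027), and the other 18 genes did not pass that test. Between day 4 and day 2, 7 pathway genes rose and 1 fell in WTCM, and 6 rose and 1 fell in APCCM. Over all genes, 24.1% were called between days in WTCM and 23.9% in APCCM. Of the pathway genes, the following moved. Igf1r, Insr, Irs2, Grb2 and Pappa2 rose in both, as in Igf1r at 43.3 against 36.0 CPM in APCCM and 39.3 against 31.2 CPM in WTCM. Igfals, which binds IGF complexes, had 27 counts in WTCM on day 4 and 7 on day 2 (log2 1.74, SE 0.61, adjusted p = 0.039). Without replicate 1 of day 4 the WTCM calls of Igfals (adjusted p = 0.053), Grb2 (0.16) and Igf2bp3 (0.058) were lost, leaving 4 higher and 1 lower. The same library left out brought calls of Igf1r (log2 0.23, adjusted p = 0.038) and Igfbp3 (12 counts against 0, adjusted p = 0.023) as higher in APCCM on day 4, and the interaction calls of Stc2, Irs2 and Ddc were kept.

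**Figure D4:**
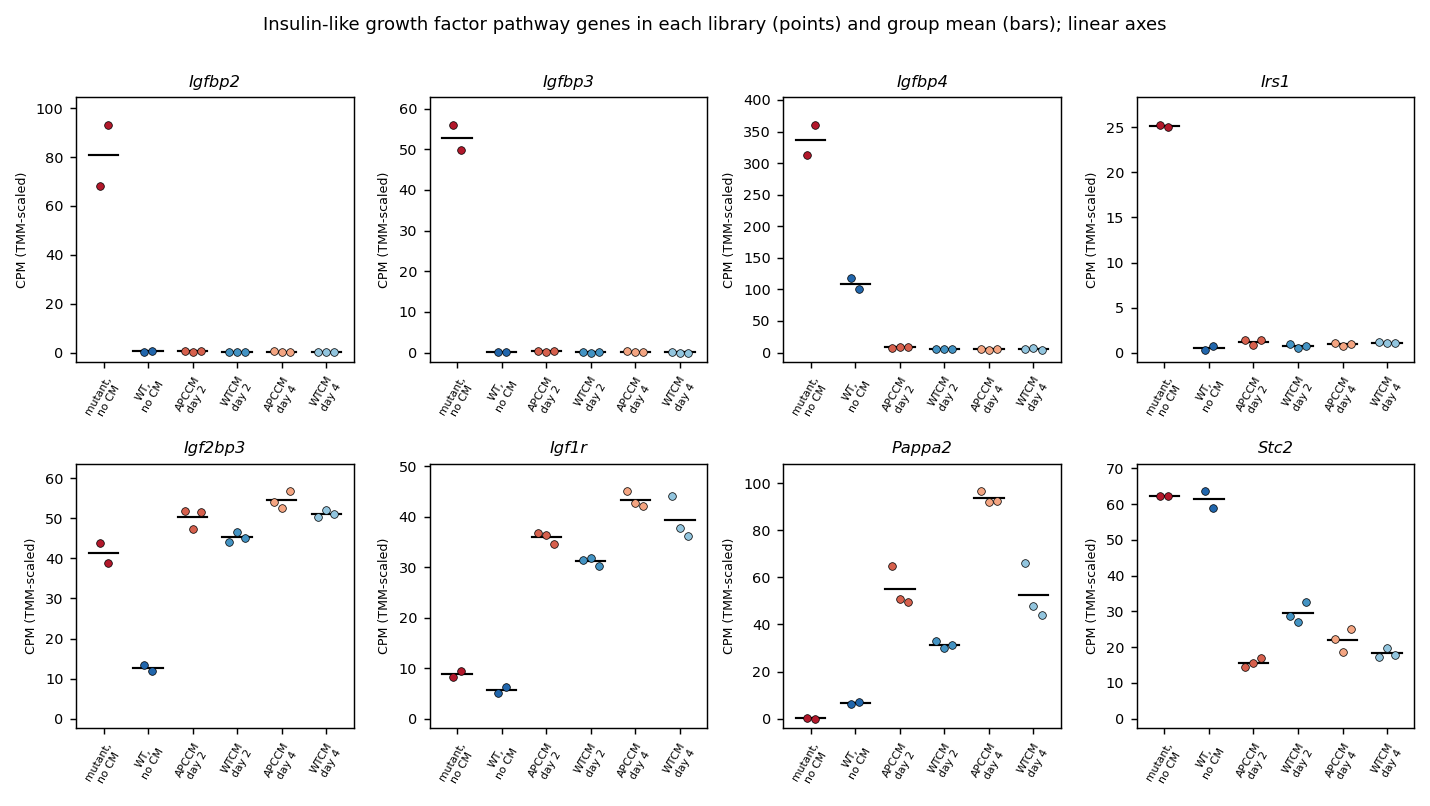
Level of 8 IGF pathway genes (CPM on effective library sizes, linear axes) in every library, with 1 point per library and a bar at the group mean. Igfbp2, Igfbp3, Igfbp4 and Irs1 stand higher in untreated mutant than in untreated wild type libraries, Pappa2 stands higher in APCCM than WTCM on both days, and the order of the Stc2 means turns between day 2 and day 4.

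The list of imprint maintenance genes also held Tet1 and its relatives Tet2 and Tet3, and its genes moved in both directions. Of 17 tested out of 20, 7 were higher and 2 lower in untreated mutant organoids, with a median log2 difference of 0.12. Over all genes 32.4% were higher and 30.1% lower. Zfp57, the zinc finger protein that guards methylation at imprinting control regions, stood at 22.0 and 20.8 CPM in mutant libraries, against 1.23 and 1.75 CPM in wild type libraries (log2 3.87, SE 0.31, adjusted p = 6.7e-11). Tet1, which oxidises methylated cytosine, stood at 6.24 and 5.57 CPM in mutant and 1.64 and 1.64 CPM in wild type libraries (log2 1.85, SE 0.30, adjusted p = 8e-06). Dnmt1, the maintenance methyltransferase, differed by 0.26 on the log2 scale (adjusted p = 0.00038), and its partner Uhrf1 did not pass the test (0.00, adjusted p = 1). In CM, 2 of the 17 were higher and 2 lower in APCCM on day 2, beside 16.7% of all genes called. On day 4, 2 were higher and 1 lower, beside 15.6%. Between day 4 and day 2 none rose and 5 fell in WTCM and likewise in APCCM, beside 11.6% and 11.7% of all genes lower. Smchd1, Setdb1 and Arid4a were among both, and these 3 remained in WTCM without replicate 1 of day 4. Trim28 (adjusted p = 0.12, edgeR) and Dnmt3a (adjusted p = 0.053) did not. All of these falls were within 0.42 on the log2 scale.

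Relatives of Cdkn1c among the CIP/KIP and INK4 cell cycle inhibitors moved in both directions. In untreated mutant organoids 3 of 6 were higher and 2 lower (median 0.42), beside 32.4% of all genes higher and 30.1% lower. Cdkn2a had 45 and 103 counts in mutant and 2 and 1 in wild type libraries (ratio 34.3, exact 95% interval 11.5 to 168, counting error only). Cdkn1a stood at 224 and 238 CPM in mutant and 121 and 108 CPM in wild type libraries (log2 1.01, SE 0.08, adjusted p = 1.8e-11). Cdkn2b stood at 9.22 and 9.61 CPM in mutant and 24.4 and 20.0 CPM in wild type libraries (log2 -1.25, SE 0.12, adjusted p = 2.2e-09). In CM, Cdkn1a was higher in APCCM on day 2 (0.34, adjusted p = 0.00037) and on day 4 (0.66, adjusted p = 5e-08), while Cdkn1c was lower, and Cdkn2b was higher on day 4 (0.34, adjusted p = 0.0018). Between day 4 and day 2, Cdkn2b rose in WTCM (0.32) and in APCCM (0.70) and Cdkn2c fell in both (in WTCM adjusted p = 0.059 without replicate 1 of day 4), with Cdkn1a falling in WTCM and Cdkn1b in APCCM.

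The genes most like each member were sought over the 6 group means on a centred log2 scale, among 13307 genes with a mean of at least 1 CPM, as a description of 6 points in which untreated and CM groups also differ in RNA content. Tcf4 was nearest to Igf2r (root mean square difference 0.07 against a median of 0.70 over all genes), at 104 CPM in untreated mutant, 21.2 in untreated wild type and 44.6 to 50.0 CPM in CM groups, and Letm2 followed (0.08). Dzip1l (0.06) and Gm3716 (0.07) were nearest to H19, at 9.68 and 10.1 CPM in untreated mutant, 0.245 and 0.150 CPM in untreated wild type and at most 0.184 and 0.172 CPM in CM groups. Clca3a1 (0.07) and Ninl (0.10) were nearest to Cdkn1c, with Clca3a1 at 42.6 CPM in untreated mutant, 13.7 CPM in untreated wild type and 12.1 to 17.4 CPM in CM groups. Cryz (0.18) and Vtcn1 (0.19) were nearest to Plagl1, and Cryz stood at 25.0 CPM in untreated mutant and 2.86 CPM in untreated wild type libraries. Slc11a2 (0.21) and Atp5k-ps2 (0.24) were nearest to Peg3, with Slc11a2 at 43.5 CPM in untreated mutant and 359 CPM in untreated wild type. Rnf7 and Ccdc115 (0.10 each) were nearest to Grb10, whose own profile rests on few counts.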

How the data were processed

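For each library the authors deposited unnormalised counts of reads per Ensembl gene. The submitters' processing notes list HTSeq 0.6.1p1, HISAT2 2.1.0, Trimmomatic 0.36 and build GRCm38. A strand setting and an annotation release for the counting are not given in the sources used. The 5 summary lines that follow the genes entered neither library sizes nor tests. They hold, among others, 26.5 to 38.9% of reads per library with several alignments and 4.78 to 19.2% outside annotated genes.

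Symbols and GRCm38 positions came from the GENCODE annotation (M21). Levels are CPM on effective library sizes (TMM factors 0.898 to 1.26). Differences were fitted with edgeR 4.0.16 (limma 3.58.1, R 4.3.3), using the quasi-likelihood test over all 16 libraries in 6 groups (10 residual degrees of freedom, common biological coefficient of variation 5.96%), filterByExpr and Benjamini-Hochberg adjustment over 16510 genes with a threshold of 0.05. Sharing the spread over groups lets pairs of 2 libraries be tested. The procedure was tested on simulated data, in which few genes changed, by small folds and at well-counted levels. That test does not cover members with few counts or the large differences of the untreated pair. A fold is given where both groups had more than 3 counts. Otherwise counts, an exact (Clopper-Pearson) 95% interval of the ratio of pooled counts, or a bound with the group at 0 set to 3 counts are given, all covering counting error only.

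The members and lists were chosen with earlier results of these data known. A test of the members between days was planned, but the levels they were chosen on cover all 6 groups, so those differences are given without p-values. Beside all 10 members, each list's genes were named where adjusted p was under 0.05, the log2 difference at least 1 in size and the libraries did not overlap, at most 6 per list and comparison. For each member tested, the 2 genes of nearest profile (log2 of CPM + 0.5) were named. Genes outside this rule are examples for list counts or were picked by position. Labels were followed where the series design text lists other groups. Replicate numbers did not pair the libraries. Alternatives were DESeq2 1.42.0, RLE scaling, no filter, a replicate block, only the groups compared in the fit, RNAs without a poly(A) tail left out, and leaving out each library.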

Additional observations from a re-analysis of the deposited data

Results flagged for a closer look

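For the members and list genes below, every untreated mutant library lay on one side of the untreated wild type libraries while every APCCM library lay on the other side of the WTCM libraries, and the difference between these contrasts was not tested. List genes were taken only where edgeR called them in both contrasts, so these calls are part of the choice. Outside the list of other imprinted genes, a gene also had to be named by the rule above in some comparison. This left out genes of smaller size, as in Trim28 (log2 0.30 without CM, -0.24 on day 2, -0.19 on day 4) and Igf2bp2 (-0.17, 0.23, 0.21). The Wnt checking list and the cell type markers were not searched, and genes of theirs turned as well. All 6 Wnt targets were called higher without CM and 4 lower in APCCM on each day, as in Nkd1 (8.25, -1.18, -1.40). Of 8 enteroendocrine markers, 5 were called lower and 1 higher without CM, and 4 higher and 2 lower in APCCM on each day. The share of all genes that turned was not counted. The untreated and CM libraries also differ in RNA content, and its part in this was not tested.

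Cdkn1c differed by 1.72 on the log2 scale without CM, by -0.23 in CM on day 2 and by -0.66 on day 4. Plagl1 differed by 3.14 without CM, by -0.59 on day 2 and by -1.06 on day 4. Kcnq1, in the domain of Cdkn1c, differed by 0.59, -0.21 and -0.40 in the same order. Pappa2 went the other way, by -5.29 without CM, 0.81 on day 2 and 0.84 on day 4.

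Ascl2 differed by -0.72 in CM on day 4 (-0.27 and not called on day 2, where its libraries did not overlap either) and by 2.03 without CM. The next 4 genes did so on day 4 and overlapped on day 2. Tnfrsf23 differed by -0.46 in CM and 0.93 without it. Phlda2 differed by 0.62 in CM and -1.39 without it, Ddc by 0.38 and -2.46, and Cdkn2b by 0.34 and -1.25. These 5 were taken because edgeR's quasi-likelihood test called them in both contrasts. Phlda2 and Tnfrsf23 were not called without replicate 1 of WTCM on day 4. Kcnq1 and Pappa2 were called on both days.

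Within the lists searched, the interaction of label and day passed the test for Stc2 (log2 1.18, adjusted p = 5.1e-06, edgeR quasi-likelihood), Ddc (log2 0.46, adjusted p = 0.00063) and Irs2 (log2 -0.51, adjusted p = 0.027).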

How the results depend on the processing

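Of 154 counts of calls under alternatives, 145 stayed within 1.5 times their main value. In APCCM against WTCM on day 2, leaving out 1 library gave 1725 to 2484 genes called, against 2755 (1725 without replicate 3 of APCCM). The label-by-day interaction called 351 genes, or 568 with only the groups compared in the fit. In WTCM between days the members called numbered 2, or 1 in DESeq2 and 0 to 1 with a library left out. The share of higher calls moved by under 10 percentage points with scaling.

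Of 262 fold changes of members, 235 counted as unchanged, and 13 reversed, none of them past the threshold. Between days and in the interaction, unchanged meant the same direction and side of the threshold. In the untreated pair and between labels in CM it meant a move within the spread between libraries. There a change of sign counted as reversed only where the main result was called. Grb10 in WTCM between days ranged from -0.67 to 1.58 with a library left out. Between days in APCCM, Cdkn1c was 0.0064 with RLE scaling, 0.00073 with no filter, 0.0040 in DESeq2, and -0.12 to 0.056 with a library left out, and Plagl1 -0.061 to 0.37. The interaction of Igf2r ranged from -0.089 to 0.013. The cause of these moves was not tested. Of 66 levels, 53 moved by less than the spread between replicates. Leaving out RNAs without a poly(A) tail raised the level of Igf2r in untreated mutant libraries to 696 CPM, against 639, without changing a call.

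A replicate block, with numbers that share no stated source (correlations of deviations -0.116 to 0.106 in CM), gave 10088 calls against 10319 in the untreated pair and 260 against 351 for the interaction, and changed no member's call. In the untreated pair the correlation was -0.428, and crossed pairing, chosen after seeing the data, gave 10564 calls.

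Depth limits H19, Igf2, Dlk1, Meg3, Peg3, Mest and Grb10 in CM, where a group at 0 allows up to 0.0531 CPM.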
